A study of Mus musculus with 13 samples.

Results

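The genes described here are 10 genes of the machinery that licenses and copies replication origins, taken as the rows of the count table with the symbols Mcm2, Mcm3, Mcm4, Mcm5, Mcm6, Mcm7, Pcna, Cdc6, Cdt1 and Gins2. All 10 were found among the 24421 genes of the table. The rows were taken by symbol, with no threshold on a measured value, and the set of symbols was drawn up with earlier results of these data known. Total RNA depleted of ribosomal RNA was sequenced of female mice, 11 from spontaneous tumors of the breast and 2 from cancer-free glands. Every group was of the MMTV-HER2/neu line 202Mul/J on FVB/N, with the genotype labelled wild type. That line carries a rat HER2/Neu transgene, which is driven in breast epithelium by the mouse mammary tumor virus promoter. How the wild type label bears on the transgene was not stated, so its presence in the glands rests on the line name. Glands (n = 2) and primary untreated tumors (n = 3) came from mice on plain water. Primary STV tumors (n = 3) arose in mice drinking stavudine, a nucleoside inhibitor of reverse transcriptase, at 1 mg/mL. Recurrent DMAG tumors (n = 3) had disappeared under 17-DMAG, which inhibits the chaperone HSP90 and was injected at 20 mg/kg 3 times per week, and then regrew. Recurrent DMAG+STV tumors (n = 2) regrew in the same way in mice drinking stavudine. According to the label protocol, stavudine began at 2 months of age or once a tumor had appeared, and which of these applied to a given recurrent tumor was not stated. Ages at tumor collection were not given.

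Replication origins are licensed in G1, when the origin recognition complex, Cdc6 and Cdt1 load the ring of Mcm2 to Mcm7 onto DNA as an inactive double hexamer. At the start of S phase kinases and the GINS complex, of which Gins2 is a subunit, turn the ring into the active helicase, and Pcna, the sliding clamp, holds the polymerases on the template. Transcription of these genes is known to be driven by E2F factors at the G1/S transition, whereas genes used in G2 and mitosis are known to be transcribed later in the cycle through CCAAT boxes and a cell cycle homology region. In tumors these genes are widely read as marks of cells that have entered the cycle.

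Promoter sequences of the genes are given first, with those of mitotic genes for comparison. RefSeq promoter windows of GRCm38.p6, from 250 bases before to 50 bases after the transcription start, were found for 8 of the 10 genes, with a pair of windows for Mcm7 and none for Mcm4 and Gins2. The E2F letters TTTCCCGC, TTTCGCGC, TTTGCCGC and TTTGGCGC, sought on both strands, stood in the promoters of 6 of these 8 genes (75%), in 66.7% of their 9 windows, and in 2.26% of all 32851 promoter windows. The 4 windows below, chosen because they hold more than 1 match, show the matches in capitals on the gene's strand.

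Mcm3, chr1:20820263-20820562, minus strand: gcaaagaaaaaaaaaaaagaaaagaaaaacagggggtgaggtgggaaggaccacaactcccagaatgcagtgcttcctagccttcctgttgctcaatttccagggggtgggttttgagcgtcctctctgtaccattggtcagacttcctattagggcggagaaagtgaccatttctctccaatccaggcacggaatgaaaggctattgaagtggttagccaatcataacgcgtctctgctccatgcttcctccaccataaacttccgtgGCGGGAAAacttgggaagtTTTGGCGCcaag
Mcm5, chr8:75109259-75109558, plus strand: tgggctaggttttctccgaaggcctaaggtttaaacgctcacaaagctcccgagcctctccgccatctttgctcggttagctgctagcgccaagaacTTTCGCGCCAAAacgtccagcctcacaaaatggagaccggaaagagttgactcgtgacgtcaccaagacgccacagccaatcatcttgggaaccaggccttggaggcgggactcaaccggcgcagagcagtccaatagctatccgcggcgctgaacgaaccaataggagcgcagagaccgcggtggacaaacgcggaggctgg
Mcm6, chr1:128359656-128359955, minus strand: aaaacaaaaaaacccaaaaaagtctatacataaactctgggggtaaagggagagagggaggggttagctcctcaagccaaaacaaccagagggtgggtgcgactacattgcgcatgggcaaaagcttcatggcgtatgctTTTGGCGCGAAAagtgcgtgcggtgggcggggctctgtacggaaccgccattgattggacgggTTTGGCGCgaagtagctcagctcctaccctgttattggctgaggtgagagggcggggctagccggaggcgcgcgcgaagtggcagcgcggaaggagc
Mcm7, chr5:138171834-138172133, minus strand: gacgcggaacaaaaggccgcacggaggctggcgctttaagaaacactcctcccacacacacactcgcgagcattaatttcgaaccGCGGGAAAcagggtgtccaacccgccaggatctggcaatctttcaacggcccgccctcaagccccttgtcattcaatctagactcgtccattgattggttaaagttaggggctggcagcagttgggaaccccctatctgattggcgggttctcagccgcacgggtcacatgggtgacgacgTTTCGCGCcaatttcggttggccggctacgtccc

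In Mcm5 a pair of matches overlapped in the 12-base run TTTCGCGCCAAA, which began 153 bases before the start, and in Mcm6 they overlapped in TTTGGCGCGAAA, 110 bases before the start, with a further match 47 bases before it. The matches of Mcm3 lay after the start, at 19 and 38 bases, and those of Mcm7 lay on both sides of it. Cdc6 held GCGGGAAA 138 bases before its start and Cdt1 held TTTGGCGC 32 bases after its start. None of the letters stood in the windows of Mcm2 and Pcna. All distances are from the RefSeq start. The windows of Cdc6 and Mcm7 lie inside the bounds of these genes in the GENCODE annotation, given below, where the annotated start differs. The GENCODE start also differs for Mcm6, Pcna and Mcm5, and that of Mcm5, at 75109569, lies after the end of its window. The windows of 11 of 12 G2 and mitosis genes, listed further on, were read in the same way. The E2F letters stood in 1 of these 11 (9.09%), while the letters TTTGAA of the cell cycle homology region stood in 8 of 11 (72.7%), against 1 of 9 replication gene windows (11.1%) and 17.9% of all windows. CCAAT stood in 11 of 11 mitotic windows, in 7 of 9 replication gene windows (77.8%) and in 37.4% of all windows. As an example of the 8 mitotic windows with TTTGAA, the window of Ccnb2, a mitotic cyclin, has both matches in capitals. The window of Ccnb1, the other B-type cyclin of the list, held CCAAT and no TTTGAA.

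Ccnb2, chr9:70421505-70421804, minus strand: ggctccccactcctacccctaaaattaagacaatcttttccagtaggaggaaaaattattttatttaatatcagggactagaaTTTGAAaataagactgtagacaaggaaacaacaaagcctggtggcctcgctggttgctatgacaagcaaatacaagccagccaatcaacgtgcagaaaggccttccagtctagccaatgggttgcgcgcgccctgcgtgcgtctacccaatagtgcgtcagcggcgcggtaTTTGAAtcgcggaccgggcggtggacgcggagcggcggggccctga

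A match of letters describes the sequence and does not show that a factor was bound there in these tumors.

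The 13 libraries held between 39921388 and 56887708 counts, and the 10 genes had between 148 counts, for Gins2, and 3877 counts, for Mcm6, in a library. Levels are given as CPM, the count out of 1000000 counts of the library, after scaling by TMM, a factor for differences in RNA composition. The factor was 0.493 in gland 2, where milk protein genes reached 733197 CPM, and between 0.999 and 1.12 in the other libraries. Gland 1 held markers of lymphocytes, with 128.5 CPM of 5 B cell genes and 90.5 CPM of the 5 T cell genes in the table, against at most 2.32 and 7.64 CPM in any other library. Skeletal muscle genes reached 1563 CPM in gland 2, 834 CPM in untreated tumor 1, 419 CPM in DMAG tumor 3 and 1390 CPM in DMAG+STV tumor 2. The luminal epithelium markers, 6 in all, summed to between 2226 and 2966 CPM in 10 tumors and to 1412 CPM in DMAG+STV tumor 2, and none of the 6 was at 0 in any library. In pieces of whole tissue, fewer cycling cells and less RNA of a gene per cell cannot be told apart.

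Within the helicase the subunits were compared per length, as CPM per kilobase of exon in the GENCODE annotation of GRCm38. Reads had been counted on the UCSC annotation, whose exon lengths were not compared with these. Rankings between genes therefore depend on the lengths used. Mcm7 (chromosome 5, 138164583 to 138172422) had the highest level of the 6 subunits in each of the 13 libraries, from 12.3 CPM per kb in gland 2 to 21.4 in DMAG tumor 1. Mcm2 (chromosome 6, 88883474 to 88898780) had the lowest level in 10 of the 13, with its own lowest value of 6.81 CPM per kb in untreated tumor 3. The highest subunit stood between 1.35 times the lowest, in gland 2, and 2.56 times the lowest, in untreated tumor 2. Over the 11 tumors the mean levels were 9.38 ± 2.47 CPM per kb for Mcm2, 10.3 ± 2.30 for Mcm5, 11.3 ± 3.001 for Mcm3, 11.3 ± 1.85 for Mcm4, 14.3 ± 3.36 for Mcm6 and 18.1 ± 2.33 for Mcm7 (SD, n = 11). The means of Mcm2, Mcm5, Mcm3 and Mcm4 differed by less than the SD of Mcm2. Mcm7 overlaps Ap4m1 and Cops6 on the opposite strand and holds miRNAs in its introns, and the strand setting of the counting was not given, so reads of neighbours cannot be separated from its own.

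**Figure D1:**
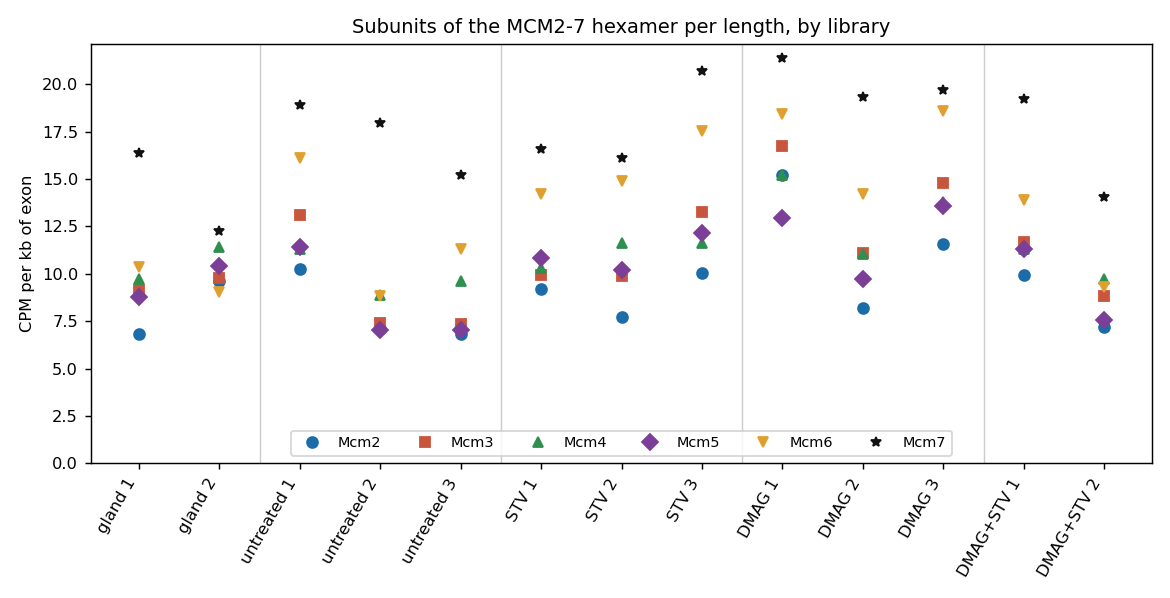
Level of each of the 6 helicase subunits, in CPM per kilobase of exon (vertical axis), in each library (horizontal axis, grouped by tissue and treatment, with 1 point per gene). Mcm7 is the highest in all 13 libraries and Mcm2 the lowest in 10.

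Outside the ring the levels spread further. Pcna (chromosome 2, 132249162 to 132253314) was at 43.3 ± 8.13 CPM per kb over the 11 tumors, above every helicase subunit on this scale. Without division by length, Pcna averaged 65.7 CPM and Mcm6 62.6 CPM over the same tumors. The loading factors were lower, with Cdt1 (chromosome 8, 122568015 to 122573554) at 5.37 ± 1.08 and Cdc6 (chromosome 11, 98907801 to 98923940) at 1.74 ± 0.287 CPM per kb. Gins2 (chromosome 8, 120578633 to 120589304) was at 1.97 ± 0.493 CPM per kb. Cdt1 and Gins2 lie inside the annotated readthrough transcript Gm20388, and the end of Gins2 overlaps Gse1 on the opposite strand.

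The comparison of primary untreated tumors with glands asks how these genes stood in tumors against the tissue of origin. Of the 10 genes, edgeR's quasi-likelihood test called 0 at a Benjamini-Hochberg adjusted p under 0.05, where 2.11% of 17135 genes were called, and DESeq2 and limma voom also called 0 of the 10. At an unadjusted p under 0.05 there was 1, which was lower in tumors, where 15.2% of all genes were lower at that p. The log2 fold changes ran from -0.74 to 0.36 with a median of -0.03, 4 above 0 and 6 below, where 48.8% of all genes were above 0. Cdt1, the licensing factor that geminin holds in check, was the gene with that p. Its level was 11.8 and 20.0 CPM in glands against 12.96, 7.60 and 7.96 CPM in untreated tumors. Untreated tumor 1 lay above gland 1, so the groups overlapped. The log2 fold change was -0.74 (SE 0.284, adjusted p = 0.150 by edgeR). Without gland 1, which leaves gland 2 alone, it was -1.03, and without gland 2 it was -0.22. Without TMM factors Cdt1 stood at 13.3 and 9.84 CPM in glands and at 13.7, 7.59 and 8.58 CPM in untreated tumors.

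The other log2 fold changes were -0.03 for Mcm2 and for Mcm3, -0.09 for Mcm4, -0.18 for Mcm5, -0.17 for Cdc6, 0.21 for Pcna, 0.28 for Mcm7, 0.32 for Mcm6 and 0.36 for Gins2. Mcm3 stood at 27.8 and 29.6 CPM in glands, between the lowest and the highest untreated tumor. Mcm2 stood at 23.1 and 32.5 CPM in glands and at 34.6, 23.9 and 23.0 CPM in untreated tumors. Gins2, at 4.95 and 5.28 CPM in glands, was below all 3 untreated tumors, at 6.95, 5.69 and 7.06 CPM, with a log2 fold change of 0.36, with an SE of 0.280 and an adjusted p of 0.433 by edgeR. It was the only 1 of the 10 genes with groups that did not overlap, and 18.8% of all genes lay apart in that direction. The mitotic list, by contrast, was above the glands in 12 of 12 genes, with a median log2 fold change of 0.71, 4 with an unadjusted p under 0.05, where 9.3% of all genes were higher at that p, and 0 called by edgeR, DESeq2 or limma voom. Besides the lymphocyte markers of gland 1 and the milk and muscle genes of gland 2, other cell type markers set both glands apart. Adipocyte genes, 5 in all, summed to between 643 and 759 CPM in glands and to at most 85.6 CPM in any tumor. All 5 adipocyte genes, 5 basal and myoepithelial genes, 6 stroma genes and 4 endothelial genes were lower in untreated tumors. Their median log2 fold changes were -4.34, -5.18, -2.24 and -1.13. At an unadjusted p under 0.05 there were 5, 4, 1 and 3 of them in turn, where 15.2% of all genes were lower. The part of these cell types in the levels of the replication genes was not tested.

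**Figure D2:**
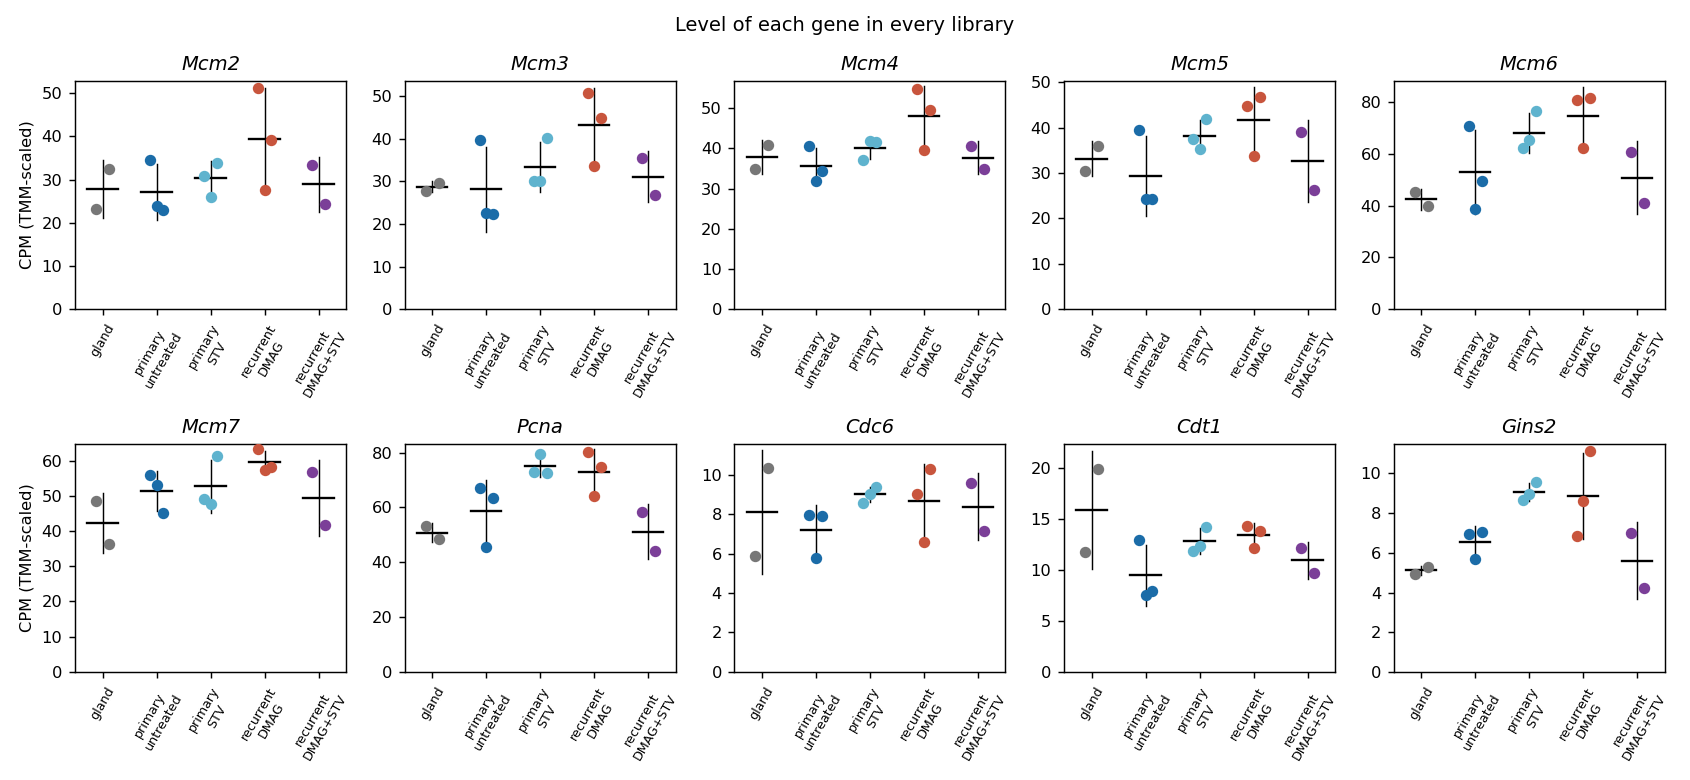
CPM of each gene (vertical axes from 0, scaled by TMM) in every library, by tissue and treatment group (horizontal axis). Points are libraries, horizontal bars are group means and vertical lines are 1 SD, with n = 2 for glands and DMAG+STV tumors and n = 3 for the others. In no gene do the DMAG+STV tumors lie above the highest DMAG tumor.

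Stavudine in primary tumors was compared with untreated primary tumors. All 10 log2 fold changes were above 0, from 0.02 for Mcm7 to 0.45 for Gins2, with a median of 0.32. Over all 16870 genes tested, 44.9% were above 0. Across tumors the 10 genes varied together, with a median r of 0.75 over pairs. A count of directions, here and in the contrasts below, is therefore not made of independent genes. None of the 10 was called by edgeR, DESeq2 or limma voom, where edgeR called 0% of all genes, and 0 of the 10 had an unadjusted p under 0.05, where 1.32% of all genes were higher at that p. Groups did not overlap for Pcna, Cdc6 and Gins2, 3 of 10 genes, against 5% of all genes in that direction. Pcna stood at 73.0, 79.5 and 72.5 CPM in STV tumors and at 67.0, 45.6 and 63.4 CPM in untreated tumors. All STV tumors lay above all untreated tumors. Its log2 fold change was 0.34 (SE 0.168, adjusted p = 1.00 by edgeR). Gins2 stood at 8.68, 8.96 and 9.55 CPM in STV tumors, again all above the untreated tumors, with a log2 fold change of 0.45, with an SE of 0.244 and an adjusted p of 1.00 by edgeR. Cdc6, which with Cdt1 brings the ring to origins, stood at 8.59, 9.05 and 9.38 CPM against 7.96, 5.77 and 7.94 CPM. The other log2 fold changes were 0.14 for Mcm2, 0.23 for Mcm3, 0.16 for Mcm4, 0.37 for Mcm5, 0.35 for Mcm6, 0.31 for Cdc6 and 0.42 for Cdt1.

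The untreated tumors were themselves unequal, and this bears on both contrasts made with them. Untreated tumor 1 had 6 of the 10 genes above the median of the 11 tumors, and untreated tumors 2 and 3 had 0. Mcm5, for example, stood at 39.4 CPM in untreated tumor 1 and at 24.3 CPM in each of the others, against 37.5, 35.3 and 42.0 CPM under stavudine. Without untreated tumor 1 the median log2 fold change for stavudine was 0.47, and without untreated tumor 2 it was 0.19. Mcm7 turned below 0, to -0.10, without STV tumor 3.

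Recurrent DMAG tumors were compared with primary untreated tumors, which asks how a tumor that regrew under 17-DMAG differed from one never treated. All 10 log2 fold changes were above 0, from 0.20 for Mcm7 to 0.60 for Mcm3, with a median of 0.45. The share above 0 was 49.4% over all genes. edgeR called 0 of the 10, as it called 0% of all genes, and DESeq2 and limma voom called 0 as well. An unadjusted p under 0.05 was reached by Mcm3 and Mcm4, 2 of 10, where 4.79% of all genes were higher at that p. Mcm4 (chromosome 16, 15623897 to 15637400) stood at 54.6, 39.7 and 49.5 CPM in DMAG tumors and at 40.6, 31.9 and 34.5 CPM in untreated tumors. DMAG tumor 2 lay just below untreated tumor 1, so the groups overlapped. The log2 fold change was 0.41 (SE 0.149, adjusted p = 0.509 by edgeR).

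Mcm3 (chromosome 1, 20802968 to 20820312) stood at 50.8, 33.6 and 44.9 CPM in DMAG tumors against 39.7, 22.5 and 22.3 CPM in untreated tumors, and differed by 0.60 on the log2 scale (SE 0.260, adjusted p = 0.510 by edgeR). Untreated tumor 1 again lay among the DMAG tumors. Mcm7 was the gene with the least change and the only 1 whose groups did not overlap, at 63.4, 57.2 and 58.3 CPM against 56.1, 53.2 and 45.1 CPM, where 7.65% of all genes lay apart in that direction. DMAG tumors 1 and 3 held the highest level of all 11 tumors for each of the 10 genes, 6 in tumor 1 and 4 in tumor 3. DMAG tumor 1 also had the highest stroma markers of the tumors, 5641 CPM over 6 genes, and its part in these levels was not tested. DMAG tumor 2, with 2 of the 10 genes above the tumor median, did not follow the other two. The other log2 fold changes were 0.52 for Mcm2, 0.50 for Mcm5, 0.48 for Mcm6, 0.30 for Pcna, 0.25 for Cdc6, 0.49 for Cdt1 and 0.42 for Gins2. The adjusted p-values of the 10 genes lay between 0.509 and 0.662 by edgeR. The mitotic list was above the untreated tumors in 12 of 12 genes, with a median log2 fold change of 0.57. Of these, 2 had an unadjusted p under 0.05, where 4.79% of all genes were higher at that p. Groups lay apart for 11 of the 12, where 7.65% of all genes did in that direction. None was called by edgeR, DESeq2 or limma voom.

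Recurrent DMAG+STV tumors were compared with primary STV tumors. All 10 log2 fold changes were below 0, from -0.06 for Mcm2 to -0.69 for Gins2, with a median of -0.16, where 48.2% of all genes were below 0. edgeR, DESeq2 and limma voom each called 0 of the 10, and edgeR called 0% of all genes. Pcna and Gins2 had an unadjusted p under 0.05, 2 of 10, where 4.64% of all genes were lower at that p. Pcna stood at 58.3 and 44.0 CPM in DMAG+STV tumors, below all 3 STV tumors, with a log2 fold change of -0.55, with an SE of 0.190 and an adjusted p of 0.432 by edgeR. Gins2 stood at 6.98 and 4.22 CPM, also below all STV tumors, with a log2 fold change of -0.69, with an SE of 0.278 and an adjusted p of 0.466 by edgeR. Mcm6 (chromosome 1, 128331590 to 128359664) was the third gene whose groups lay apart, at 60.7 and 40.8 CPM against 62.1, 65.1 and 76.6 CPM, and 17.9% of all genes lay apart in that direction.

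The other log2 fold changes were -0.10 for Mcm3, -0.09 for Mcm4, -0.23 for Mcm5, -0.42 for Mcm6, -0.09 for Mcm7, -0.10 for Cdc6 and -0.22 for Cdt1. The direction of several of these rested on DMAG+STV tumor 2. In DMAG+STV tumor 1, 5 of the 10 genes lay above the median of the 11 tumors, and in tumor 2 none did. Cdc6 stood at 9.60 CPM in tumor 1, above all 3 STV tumors, and at 7.18 CPM in tumor 2, below all of them. Without tumor 2, the log2 fold changes of 6 of the 10 genes were above 0, with a median of 0.02, and those of Pcna and Gins2 were -0.37 and -0.38. Without tumor 1 the median was -0.38. Tumor 2 was also the tumor with the most skeletal muscle RNA and the least luminal marker RNA. Other markers set both DMAG+STV tumors apart from the STV tumors. Leukocyte and macrophage genes summed to between 286 and 410 CPM against 141 to 164 CPM, with a median log2 fold change of 0.50. Stroma genes summed to between 1389 and 1818 CPM against 239 to 645 CPM, with a median log2 fold change of 1.51. The part of these cell types in the lower values of the replication genes was not tested.

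Recurrent DMAG+STV tumors were next compared with recurrent DMAG tumors, which asks whether recurrent tumors differed with stavudine. All 10 log2 fold changes were below 0, from -0.04 for Cdc6 to -0.66 for Gins2, with a median of -0.40, where 50.6% of all genes were below 0. None was called by edgeR, DESeq2 or limma voom, and edgeR called 0% of all genes. An unadjusted p under 0.05 was again reached by Pcna and Gins2, 2 of 10, where 4.38% of all genes were lower at that p. Pcna stood at 80.2, 64.2 and 74.8 CPM in DMAG tumors, all above the DMAG+STV tumors, with a log2 fold change of -0.51, with an SE of 0.190 and an adjusted p of 0.558 by edgeR. Gins2 stood at 6.85, 8.60 and 11.1 CPM in DMAG tumors, and DMAG tumor 1 lay just below DMAG+STV tumor 1. Its log2 fold change was -0.66 (SE 0.278, adjusted p = 0.614). The other values were -0.44 for Mcm2, -0.47 for Mcm3, -0.34 for Mcm4, -0.35 for Mcm5, -0.55 for Mcm6, -0.27 for Mcm7 and -0.29 for Cdt1. Groups lay apart for Mcm6, Mcm7 and Pcna, against 10.5% of all genes in that direction. The gap was narrow for Mcm7, at 57.2 CPM in DMAG tumor 2 and 56.9 CPM in DMAG+STV tumor 1. For Mcm6 the same tumors stood at 62.1 and 60.7 CPM. This contrast and the previous one share the DMAG+STV tumors, so their common direction is not independent. Without DMAG+STV tumor 2 the median was -0.24 and without tumor 1 it was -0.69.

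The interaction term compares the change at recurrence under stavudine with the change at recurrence without it. All 10 estimates were below 0, from -0.29 for Mcm7 to -1.11 for Gins2, with a median of -0.71, against 47.5% of all genes below 0. edgeR called 0 of the 10 and 0% of all genes, and DESeq2 and limma voom called 0 of the 10. Pcna, at -0.85 (SE 0.253, adjusted p = 0.479 by edgeR), Gins2, at -1.11 (SE 0.370, adjusted p = 0.536), and Mcm6, at -0.90 (SE 0.351, adjusted p = 0.600), had an unadjusted p under 0.05, 3 of 10, where 4.01% of all genes were below 0 at that p. The other estimates were -0.58 for Mcm2, -0.70 for Mcm3, -0.50 for Mcm4, -0.73 for Mcm5, -0.35 for Cdc6 and -0.71 for Cdt1. The median was -0.52 without DMAG+STV tumor 2 and -0.98 without untreated tumor 1. The term is built from the contrasts above and reuses their tumors.

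**Figure D3:**
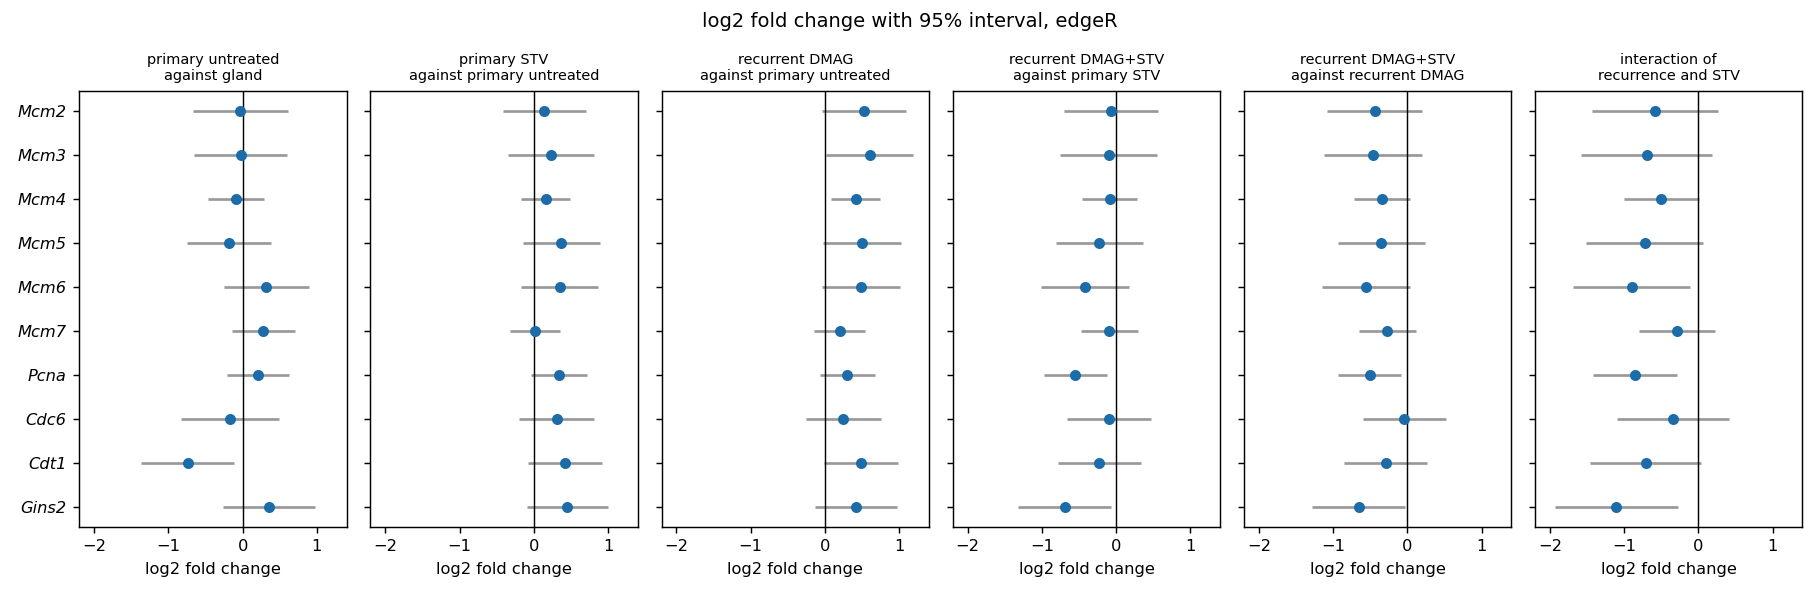
log2 fold change of each gene (horizontal axes) in 6 comparisons, 1 panel each, with its 95% interval from edgeR. In the STV and DMAG panels all 10 points lie above 0, in the panels with DMAG+STV tumors and the interaction all 10 lie below 0, and no gene passed the adjusted threshold in any panel.

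The intervals show what these comparisons could and could not separate. For Mcm7, the most even of the genes, the 95% interval of the log2 fold change ran from -0.32 to 0.36 under stavudine and from -0.14 to 0.54 in DMAG tumors. For Pcna in DMAG+STV against STV tumors it ran from -0.98 to -0.12, and for Gins2 from -1.32 to -0.07, before any adjustment for the number of genes. For Cdc6 in the same contrast it ran from -0.66 to 0.46, so a change in either direction was not separated from none. The interval of Mcm2 was wider, from -0.70 to 0.57, and its levels were 33.4 and 24.3 CPM in DMAG+STV tumors against 30.9, 26.04 and 33.8 CPM in STV tumors. Mcm2 in DMAG tumors ranged from 27.6 to 51.3 CPM, so tumors of 1 group differed more than the means of any 2 groups. Mcm5, at 39.0 and 26.2 CPM in DMAG+STV tumors and 44.8, 33.7 and 46.9 CPM in DMAG tumors, showed the same overlap. Cdt1 stood at 14.3, 12.2 and 13.9 CPM in DMAG tumors and at 12.2 and 9.68 CPM in DMAG+STV tumors, where the lowest DMAG tumor and DMAG+STV tumor 1 had nearly the same level.

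Further genes of replication were read from lists drawn up by role. For reading their counts, 4.79% of all genes were higher in DMAG than in untreated tumors at an unadjusted p under 0.05, 4.64% were lower in DMAG+STV than in STV tumors and 4.38% were lower in DMAG+STV than in DMAG tumors. Of the factors that recognise origins and load the helicase, 10 genes with the Orc subunits and geminin (Gmnn), 7 had a log2 fold change below 0 in DMAG+STV against STV tumors, with a median of -0.06 and 0 with an unadjusted p under 0.05. The smallest p-values were those of Orc5, at -0.33, Orc2, at -0.16, and Orc6, at -0.13. In DMAG against untreated tumors the median was 0.18, and Lrwd1, at 0.35, and Orc1, at 0.68, were the 2 of 10 with an unadjusted p under 0.05, followed by Gmnn at 0.54. Of the factors that activate the helicase and travel with the fork, 16 genes with Cdc45 and the other GINS subunits, 16 of 16 were above 0 in DMAG against untreated tumors with a median of 0.35, 4 with an unadjusted p under 0.05, led by Mtbp at 0.68, Ticrr at 0.92 and Recql4 at 0.83. In DMAG+STV against DMAG tumors 16 of 16 were below 0, with a median of -0.32 and 3 with an unadjusted p under 0.05. Those 3 were Ticrr, at -1.22, and Mtbp, at -0.69, partners in starting origins, and Dbf4, at -0.77, the activator of the kinase Cdc7. Of the MCM paralogs outside the ring, Mcm8, a helicase of recombination, had an unadjusted p under 0.05 in DMAG+STV tumors against STV tumors, at -0.60, and against DMAG tumors, at -0.75, while Mcm9 was at -0.17 and -0.11 and Mcmdc2 at -0.10 and 0.16. None of these genes was called by any of the 3 tools in the contrasts between tumors. In the gland contrast DESeq2 alone called Topbp1 of the fork list and Pold3 of the polymerase list described next. It called 2352 of the 17135 genes tested in that contrast.

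The polymerases, clamp loaders and Okazaki fragment enzymes, 26 genes, were below 0 in 26 of 26 in DMAG+STV against STV tumors, with a median of -0.39 and 7 with an unadjusted p under 0.05, where 4.64% of all genes were lower at that p. The groups of 15 of the 26 lay apart, where 17.9% of all genes did in that direction. Pola1, the catalytic subunit of the polymerase that starts each strand, stood at 31.8 ± 9.60 CPM in DMAG+STV tumors (SD, n = 2) and at 53.2 ± 4.01 CPM in STV tumors (SD, n = 3). The log2 difference was -0.74 (SE 0.232, adjusted p = 0.384 by edgeR). Rpa2, of the protein that coats single strands, was at -0.90 and Pole4, an accessory polymerase subunit, at -0.41. Against DMAG tumors 25 of 26 were below 0, with a median of -0.38 and 9 with an unadjusted p under 0.05, where 4.38% of all genes were lower at that p, and groups lay apart for 14, where 10.5% of all genes did. The smallest p-values were those of Chtf18, a clamp loader subunit, at -0.94, Pold3, at -0.48, and Lig1, at -0.69. Lig1, the ligase of Okazaki fragments, stood at 31.3 ± 8.22 CPM in DMAG+STV tumors (SD, n = 2) and at 50.5 ± 5.37 CPM in DMAG tumors (SD, n = 3). edgeR, DESeq2 and limma voom called 0 of the 26 in both contrasts.

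The 18 regulators of the G1/S step were split, with 8 above and 10 below 0 in DMAG+STV against STV tumors and a median of -0.05. Of these, 2 were higher and 1 was lower at an unadjusted p under 0.05, where 4.64% of all genes were lower at that p. Against DMAG tumors 7 were above and 11 below 0 with a median of -0.23. At that p, 1 was higher and 3 were lower, where 4.38% of all genes were lower. The share of all genes higher at that p is not given for these contrasts, so the higher regulators have no share beside them. Of these genes Ccna2, the cyclin of S phase and G2, had the smallest p in the contrast with DMAG tumors. It stood at 19.2 ± 8.21 CPM in DMAG+STV tumors (SD, n = 2), 51.2 ± 3.59 CPM in DMAG tumors and 40.4 ± 7.37 CPM in STV tumors (SD, n = 3). The log2 fold change was -1.41 (SE 0.266, adjusted p = 0.189 by edgeR) against DMAG tumors and -1.07 (SE 0.262, adjusted p = 0.313) against STV tumors, and DESeq2 called it in both. Rb1, which restrains E2F, was higher in DMAG+STV than in STV tumors by 1.52 on the log2 scale (SE 0.335, adjusted p = 0.292 by edgeR), and DESeq2 called it. Cdkn1a, the cyclin-dependent kinase inhibitor p21, stood at 25.7 and 118 CPM in DMAG+STV tumors and between 4.03 and 14.7 CPM in STV tumors, higher by 3.09 on the log2 scale (SE 1.10, adjusted p = 0.441 by edgeR), and no tool called it. E2f8, an atypical E2F that represses the same targets, was at -0.88 against DMAG tumors (SE 0.325, adjusted p = 0.551 by edgeR).

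In DMAG+STV tumors the median difference of the mitotic genes was larger than that of the replication genes. The mitotic list held Mki67, Top2a, Ccnb1, Ccnb2, Cdk1, Aurka, Aurkb, Bub1, Plk1, Cdc20, Cenpe and Kif11. In DMAG+STV against STV tumors 12 of 12 were below 0 with a median of -1.17, against -0.16 for the replication genes, and in DMAG+STV against DMAG tumors 12 of 12 with a median of -1.69, against -0.40. The smallest p-values were those of Ccnb2, Ccnb1 and Mki67, at -1.85, -1.60 and -1.51 in the first contrast and -2.03, -1.99 and -1.85 in the second. All 12 had an unadjusted p under 0.05 and groups that did not overlap in both contrasts. Of all genes, 4.64% and 4.38% were lower at that p and 17.9% and 10.5% had groups apart in that direction. edgeR and limma voom called 0 of the 12 in each, and DESeq2 called 6 of 12 against STV tumors and 12 of 12 against DMAG tumors, while it called 0 of the 10 replication genes in both. Of the 16870 genes tested, DESeq2 called 331 in the first contrast and 277 in the second, in either direction. Mki67, the gene of the proliferation marker Ki-67, stood at 198 and 83.8 CPM in DMAG+STV tumors, below 309, 479 and 421 CPM in STV tumors and 523, 510 and 503 CPM in DMAG tumors. Without DMAG+STV tumor 2 the medians of the mitotic list were -0.67 and -1.16, and those of the replication genes were 0.02 and -0.24.

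The same was read per library as the mean log2 CPM of the 10 genes minus that of the 12 mitotic genes. This difference was 0.46 and 1.19 in the DMAG+STV tumors and lay between -0.73 and -0.03 in the 9 other tumors, so the groups did not overlap. In the glands it was -0.17 and 0.94. The mean of the replication genes itself was 4.82 and 4.36 in the DMAG+STV tumors, within the range of 4.32 to 5.11 in the other tumors, whereas the mean of the mitotic genes was 4.36 and 3.17, below the range of 4.71 to 5.55. The difference between the lists was not tested.

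**Figure D4:**
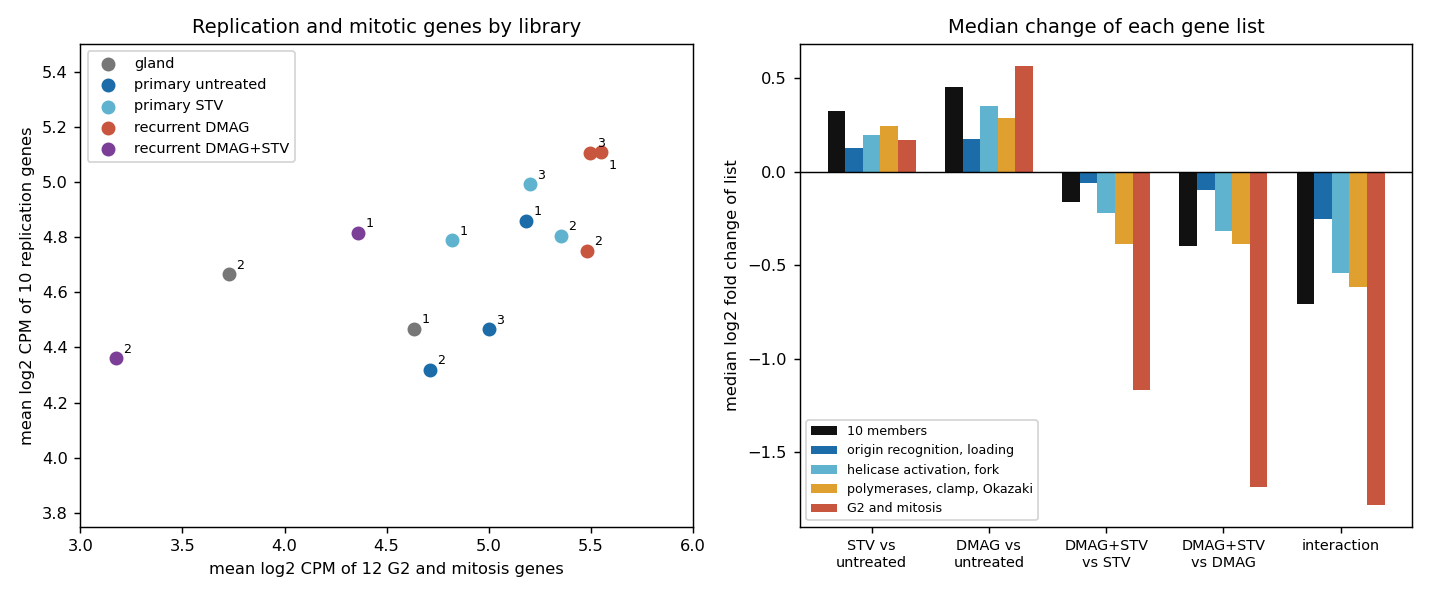
Left, mean log2 CPM of the 10 replication genes (vertical axis) against that of 12 G2 and mitosis genes (horizontal axis), 1 point per library, numbered by replicate and colored by group. Right, bars from 0 give the median log2 fold change of each gene list in 5 comparisons. The DMAG+STV tumors sit to the left of all other tumors, and the mitotic bars with DMAG+STV tumors reach -1.17 and -1.69 where those of the 10 genes reach -0.16 and -0.40.

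Across the 11 tumors the 10 genes varied together. Pearson's r of log2 CPM had a median of 0.75 over the 45 pairs, from 0.32 for Mcm7 with Cdc6 to 0.96 for Mcm5 with Cdt1. With the mean of the other 9 genes, r was 0.98 for Mcm6 and 0.97 for Mcm5, and it was lowest for Gins2, at 0.65, and Mcm7, at 0.70. The points share library composition and come from 4 groups, so these values are descriptions. Because the genes moved together, 1 or 2 tumors can set the direction of all 10 in a contrast. Co-variation within the other lists was not measured. The mean profile of the 10 genes had an r of 0.67 with that of the mitotic list, 0.54 with Mki67 and -0.43 with the total count over the same 11 tumors. Single genes differed in this respect, from an r with Mki67 of 0.19 for Cdc6 to 0.73 for Pcna and Gins2, the pair of genes with the smallest p-values in the contrasts with DMAG+STV tumors. The coefficient of variation over tumors ran from 12.9% for Mcm7 to 26.6% for Mcm3, and the highest tumor stood between 1.52 times the lowest, for Mcm7, and 2.64 times, for Gins2.

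The genes most like the mean profile, among 10160 others whose log2 CPM averaged 3 or more, were Dtl, at an r of 0.97, Ogfrl1, at 0.97, E2f8, at 0.96, Uhrf1, at 0.94, Eri1, at 0.94, and Clspn, at 0.94, over 11 tumors. Dtl guides the ligase that destroys Cdt1 in S phase, Uhrf1 maintains DNA methylation behind the fork, and Clspn is a mediator of the replication checkpoint. Dtl stood at 21.1 CPM in untreated, 26.8 in STV, 31.5 in DMAG and 21.3 in DMAG+STV tumors on average, the order of the group means of Mcm2, Mcm3, Mcm4 and Mcm5. Ogfrl1, an opioid growth factor receptor-like gene, averaged 207, 313, 446 and 241 CPM in the same groups.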

How the data were processed

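RNA was sequenced from 13 libraries with a stranded kit after removal of ribosomal RNA. Per the labels and the methods of the study, the authors used bcl2fastq 2.20, aligned reads by STAR to mm10/GRCm38 and assigned them to genes of the UCSC annotation by featureCounts in Subread 1.6.2. The strand setting and the handling of reads with several positions were not given in the sources used here. The deposited values were raw counts per gene, with no normalization. Counts were tested in R 4.3.3 with edgeR 4.0.16 (filterByExpr, TMM factors, robust quasi-likelihood test), with glands and tumors in 1 fit (17135 genes) for the gland contrast and the 11 tumors alone (16870 genes) for the other 5. The Benjamini-Hochberg adjustment ran over all genes, two-sided p-values were used, calls were made at an adjusted p under 0.05, and SEs are log2 fold changes over the root of the F statistic. Log2 CPM used a prior count of 2. The scripts were checked on simulated counts. DESeq2 1.42.0 and limma 3.58.1 (voom) were alternatives, as were other factors and filters, the replicate block and leaving out each library. Exon lengths came from GENCODE for GRCm38 and promoters from RefSeq GRCm38.p6. The labels number the libraries of a group as replicates, and whether each came from a separate tumor, gland or mouse was not given. The tests treat libraries as independent, which could not be checked, so the p-values may not extend to other mice.

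The genes and lists were chosen with earlier results of these data known. The naming rule took all 10 genes in every contrast, Mki67, the 6 genes most like the mean profile and, for a list in a contrast described gene by gene, the 3 genes with the smallest p and any gene called. In the other contrasts a list is given by counts and medians or is not described.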

Additional observations from a re-analysis of the deposited data

How the results depend on the processing

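Of 1210 log2 fold changes of the 10 genes recomputed under other settings, 1185 kept their direction and their side of the threshold and 24 changed sign. The other 1 was Cdt1 against glands without gland 1, at -1.03, in a fit that leaves gland 2 alone in its group. DESeq2 moved the number of genes called to 2352 for the gland contrast, 17 for STV, 61 for DMAG, 331 for DMAG+STV against STV, 277 against DMAG and 189 for the interaction. A fit on the libraries of the contrast alone called 0 genes against glands and 2 for DMAG+STV against STV tumors. Levels of the 10 genes without TMM factors moved in glands only, from a median of 30.9 to 24.4 CPM. Leaving out milk, muscle and adipocyte genes and Rn45s turned Mcm3 against glands to 0.0027.

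Replicate numbers did not pair the samples. Same-numbered tumors of different groups correlated between -0.30 and 0.22, over 0.1 in 3 of 15 pairs. With the replicate block, 4 genes were called against glands and Cdc6 in DMAG+STV against DMAG tumors turned to 0.046.

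Leaving out each library in turn, against glands, gave 0 to 3381 genes and 0 to 1 of the 10 called, a median from -0.22 to 0.21, and values from -0.24 to 0.33 for Mcm2, -0.36 to 0.12 for Mcm3, -0.19 to 0.13 for Mcm4, -0.45 to 0.041 for Mcm5 and -0.48 to 0.39 for Cdc6. For STV the median ran from 0.19 to 0.47 and Mcm7 from -0.097 to 0.097. For DMAG the number of genes called ran from 0 to 1 and the median from 0.34 to 0.62. For DMAG+STV against STV tumors, 0 to 100 genes were called, most without DMAG+STV tumor 1, the median ran from -0.38 to 0.018, and values ran from -0.32 to 0.14 for Mcm2, -0.32 to 0.080 for Mcm3, -0.21 to 0.012 for Mcm4, -0.55 to 0.023 for Mcm5, -0.35 to 0.11 for Mcm7 and -0.33 to 0.088 for Cdc6. Against DMAG tumors the ranges were 0 to 141 genes, -0.69 to -0.24 for the median and -0.28 to 0.14 for Cdc6. For the interaction they were 0 to 77 genes and -0.98 to -0.52. The median r over pairs of the 10 genes ran from 0.72 to 0.77, a check chosen after seeing the data. The cause of these moves was not tested. With 2 or 3 tumors a group, the intervals of the log2 fold changes bound what could be detected.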
